A study of Mus musculus with 11 samples.

Results

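Expression of 10 identity genes of resident Kupffer cells was described in the livers of 11 male wild-type mice: *Clec4f*, *Vsig4*, *Timd4*, *Cd5l*, *Marco*, *Adgre1*, *C1qa*, *C1qb*, *C1qc* and *Csf1r*. The genes were chosen by symbol with earlier results of these data known, and all 10 were found among the 13669 genes counted. All animals carried a vector derived from adeno-associated virus of serotype 8 (rAAV), which used the LP1 promoter, a compact promoter built from human apolipoprotein and alpha-1-antitrypsin control elements and active in hepatocytes. In 6 mice (AAV-TuD) the virus expressed a tough decoy, an RNA carrying binding sites that sequester *miR-379* and *miR-541*. In the other 5 mice (AAV-NC) it expressed a negative control sequence. The decoy is thus made in hepatocytes, whereas the genes described here belong to macrophages of the same tissue. The study reports that in liver the decoy also lowered the host transcripts *lncMGC* and *Mirg* and other microRNAs of the same cluster. The study used C57BL/6J mice, and the diet, the age at killing and the interval after the rAAV are not given for these single animals. The comparison asks how the resident macrophage transcripts differed between livers with and without the decoy.

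Kupffer cells are the macrophages that live in the liver sinusoids, where they clear particles, bacteria, lipoproteins and dying cells from the portal blood. They arise from embryonic precursors, renew themselves in place, and depend on signals through the receptor encoded by *Csf1r*. *Clec4f* is the gene most restricted to this cell in the mouse, and *Vsig4*, *Timd4*, *Cd5l* and *Marco* mark the resident population, although other tissue macrophages also use them. *Adgre1* (F4/80), the C1q chains and *Csf1r* are shared with macrophages that are recruited from monocytes. RNA was taken from whole liver, so that a change in the number of cells of a type and a change in RNA per cell cannot be told apart.

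Between 8148531 and 12043959 reads per liver were assigned to genes. Reads from the major urinary protein genes made up 38.6% of the AAV-NC liver 7, 30.9% and 28.4% of the AAV-TuD livers 3 and 5, and at most 18.7% of any other liver. Values are therefore given as CPM, the reads of a gene relative to a fixed number of reads in that liver, after TMM scaling, which corrects for such shares. The library kit reads the 3′ end of each transcript, so that CPM can be compared between genes without regard to length. All 10 markers had more than 10 reads in every liver. The labelled tissue carried its defining hepatocyte transcripts, with *Alb* at 21096 ± 2304 CPM (SD, n = 5) in AAV-NC and 28044 ± 2727 CPM (n = 6) in AAV-TuD livers (log2 fold change 0.41, edgeR adjusted p = 0.0805).

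The markers of resident Kupffer cells were higher in AAV-TuD livers. When the 13334 genes with enough reads were tested by edgeR (quasi-likelihood, Benjamini-Hochberg adjusted p under 0.05), 11.6% differed between the groups. Of the 10 markers, 7 rose (*Clec4f*, *Vsig4*, *Cd5l*, *C1qa*, *C1qb*, *C1qc* and *Csf1r*), against 7.24% of all genes tested that were called higher. None of the 10 fell, against 4.33% called lower. At an unadjusted p under 0.05, 8 markers were higher, against 14.5% of all genes. The markers were chosen with earlier results of these data known, so these shares are a description and no independent test. The log2 fold changes of the 7 that rose lay between 0.79 and 0.98, which is 1.72-fold to 1.97-fold. *Timd4*, *Marco* and *Adgre1* did not pass the threshold, and their log2 fold changes of 0.30, 0.79 and 0.66 were also positive. The median log2 fold change was 0.87 for the 10 markers and -0.002 for all genes tested. The groups overlapped for each of the 10 markers, while 4.11% of all genes had every AAV-TuD liver above every AAV-NC liver and 3.28% had every AAV-TuD liver below. For the 7 that rose, 5 of the 6 AAV-TuD livers lay above all AAV-NC livers, and the exception was the AAV-TuD liver 3 each time.

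**Figure D1:**
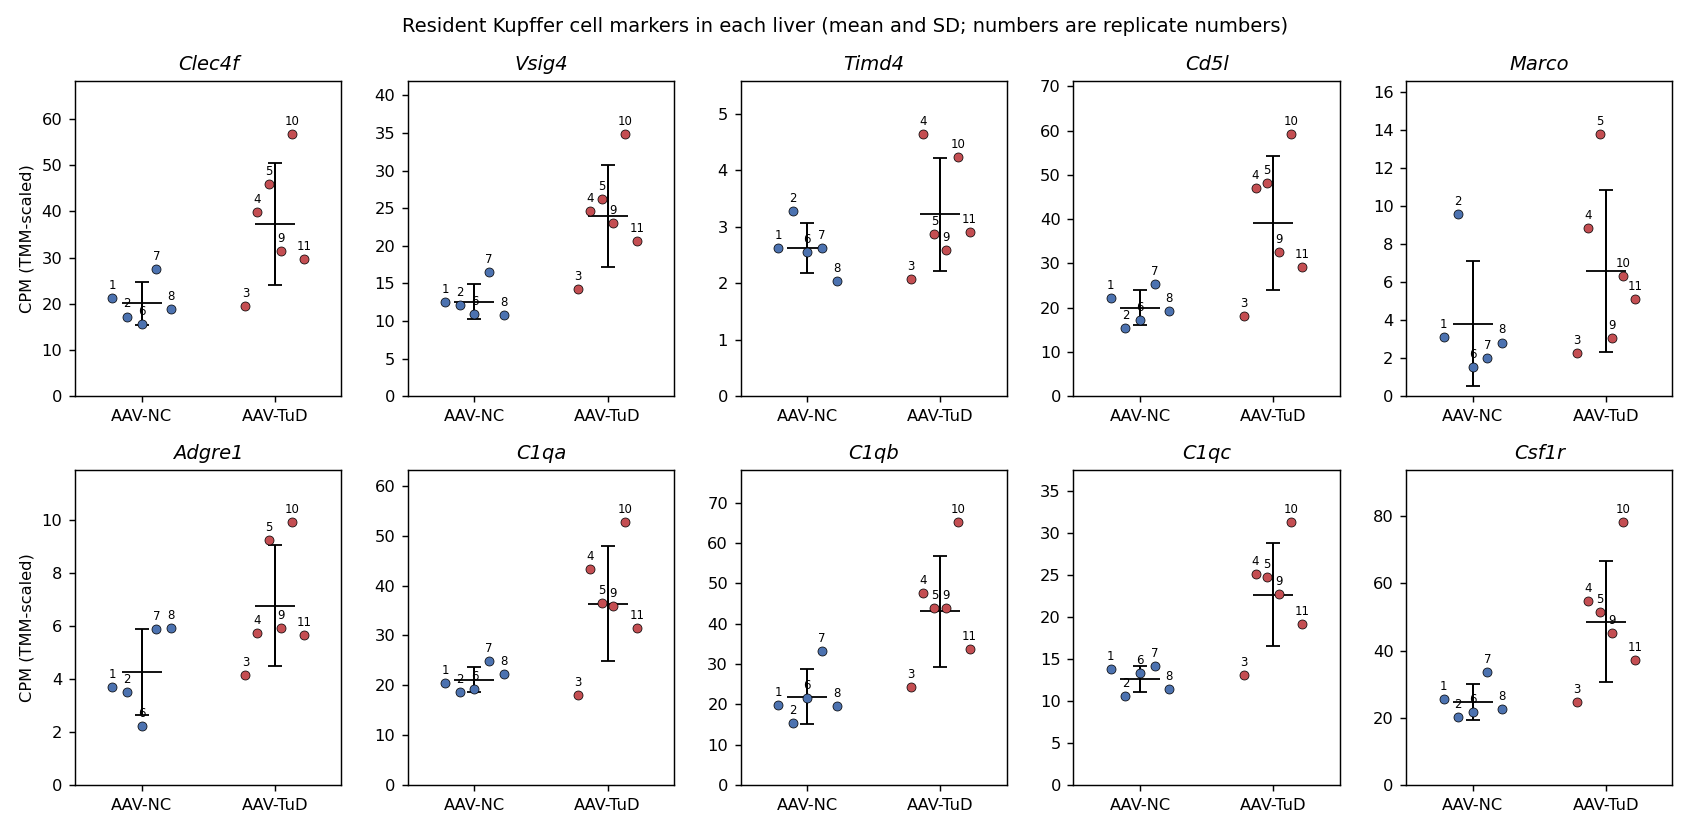
Level of each resident marker in every liver, as TMM-scaled CPM on linear axes that start at 0. Points are livers with their replicate numbers, and the horizontal line and bar give the mean and SD of 5 AAV-NC and 6 AAV-TuD livers. In each panel the AAV-TuD liver 3 is the lowest of its group and lies below the highest AAV-NC liver.

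The promoters of these genes are shown here because 2 macrophage transcription factors that were themselves measured, PU.1 (gene *Spi1*) and MAF, recognise short motifs of known letters. Promoters of 250 bases before to 50 bases after the RefSeq start (GRCm38.p6) were searched for 7 of the markers. For *Adgre1* and *C1qa* none was at hand, and *Csf1r* was left out of the search. The PU.1 core GAGGAA, searched on both strands, stood in 5 of the 7 promoters (*Marco*, *Cd5l*, *C1qb*, *C1qc* and *Vsig4*) and in 28.3% of 32851 promoters. The MAF core TGCTGA, searched in the same way, stood in 5 of the 7 (*Cd5l*, *C1qb*, *Clec4f*, *Timd4* and *Vsig4*) and in 19.5% of all. Neither motif contains the other. A window around 1 match per gene follows, written 5′ to 3′ on the strand of the gene with the matched letters in capitals, the first 5 for the PU.1 core and the last 2 for the MAF core.
*C1qb* (chr4:136886213-136886242, minus strand, match 30 bases before the start): gcagcaggatggGAGGAAcagaggggtgat
*Vsig4* (chrX:96293474-96293503, minus strand, 53 bases before the start): ggggaagtgtgtGAGGAAactaggattctg
*Marco* (chr1:120505153-120505182, minus strand, 146 bases before the start): tgaagtgggtcaGAGGAAgatttcctgggg
*Cd5l* (chr3:87357803-87357832, plus strand, reverse complement, 66 bases before the start): cagtcacctcccTTCCTCtggccatgctga
*C1qc* (chr4:136893090-136893119, minus strand, reverse complement, 193 bases before the start): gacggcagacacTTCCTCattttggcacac
*Clec4f* (chr6:83656298-83656327, minus strand, 199 bases before the start): gattgcagacccTGCTGAagggggttgggt
*Timd4* (chr11:46810743-46810772, plus strand, reverse complement, 44 bases before the start): cgtcccaccctgTCAGCAggaattgtgata
The *Cd5l* window also ends on a MAF core, in lower case, 54 bases before the start, and a further one on the opposite strand begins 46 bases before it. Such matches describe the letters of these windows and no binding was measured.

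Of the surface receptors that define the resident cell, *Clec4f* and *Vsig4* rose, while *Timd4* and *Marco* did not pass the test. *Clec4f* (ENSMUSG00000014542, chromosome 6 of GRCm38, 83644542 to 83656187) encodes a lectin that binds galactose-bearing glycans. Its level was 21.2, 17.2, 15.7, 27.5 and 18.8 CPM in the AAV-NC livers 1, 2, 6, 7 and 8, and 19.5 to 56.8 CPM with a median of 35.7 in the AAV-TuD livers. Apart from the AAV-TuD liver 3, all treated livers lay above the control range, and the mean rose from 20.1 ± 4.63 to 37.2 ± 13.2 CPM (SD, n = 5 and 6; log2 fold change 0.89, SE 0.22, edgeR adjusted p = 0.0171). *Vsig4* (ENSMUSG00000044206, chromosome X, 96247203 to 96293438), the complement receptor CRIg that captures particles coated with C3 fragments, was at 12.5, 12.1, 11, 16.5 and 10.8 CPM in the AAV-NC livers. The AAV-TuD livers lay between 14.3 and 34.9 CPM with a median of 23.8. The log2 fold change was 0.93 (SE 0.18, edgeR adjusted p = 0.00509), and *Vsig4* had the smallest p of the 10 markers.

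*Timd4* (ENSMUSG00000055546, chromosome 11, 46810800 to 46844332) encodes TIM4, a receptor for phosphatidylserine on dying cells that is acquired late by macrophages of recruited origin. It was the lowest of the 10 markers, with 21 to 51 reads per liver. Its values were 2.63, 3.27, 2.55, 2.63 and 2.04 CPM in the AAV-NC livers and 2.07 to 4.65 CPM with a median of 2.89 in the AAV-TuD livers. The groups overlapped, with 2 of 6 AAV-TuD livers above all controls, and the log2 fold change of 0.30 did not pass the test (SE 0.23, 95% interval -0.14 to 0.75, edgeR adjusted p = 0.433). The interval runs from a small decrease to near the change of *C1qa*, and whether *Timd4* changed less than *C1qa* was not tested. *Marco* (ENSMUSG00000026390, chromosome 1, 120474538 to 120505024), a scavenger receptor for bacteria and particles, was the most variable of the markers. Its level was 3.10, 9.57, 1.55, 2.0 and 2.82 CPM in the AAV-NC livers and 2.25 to 13.8 CPM with a median of 5.71 in the AAV-TuD livers. The AAV-NC liver 2 alone exceeded most treated livers. The log2 fold change of 0.79 (SE 0.48, 95% interval -0.15 to 1.73, edgeR adjusted p = 0.321) became 1.45 without that liver, with an adjusted p of 0.0572, and 0.45 without the AAV-TuD liver 5, with an adjusted p of 0.588.

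Of the secreted products, *Cd5l* (ENSMUSG00000015854, chromosome 3, 87357881 to 87371073) encodes AIM, a soluble scavenger receptor protein that circulates with IgM. It was at 22.2, 15.5, 17.3, 25.4 and 19.3 CPM in the AAV-NC livers and at 18.1 to 59.3 CPM with a median of 39.8 in the AAV-TuD livers. The highest treated liver carried more than any control, while the lowest lay inside the control range. *Cd5l* rose with a log2 fold change of 0.97 (SE 0.24, edgeR adjusted p = 0.0160).

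The 3 chains of C1q, the recognition molecule of the classical complement pathway, are encoded side by side on the minus strand of chromosome 4 and are joined in a single protein. *C1qb* (ENSMUSG00000036905, 136880129 to 136886187), *C1qc* (ENSMUSG00000036896, 136889804 to 136893065) and *C1qa* (ENSMUSG00000036887, 136895917 to 136898803) follow each other within 18675 bases, with gaps of 3616 and 2851 bases. *C1qb* was at 19.9, 15.4, 21.6, 33.3 and 19.5 CPM in the AAV-NC livers and at 24.3 to 65.2 CPM with a median of 43.9 in the AAV-TuD livers. Its control value in the liver 7 was above the lowest treated liver and below the 5 others, and the gene rose by a log2 fold change of 0.98 (SE 0.22, edgeR adjusted p = 0.0104). *C1qa* was at 20.4, 18.6, 19.3, 24.9 and 22.3 CPM in AAV-NC and at 18.1 to 52.7 CPM with a median of 36.2 in AAV-TuD livers. *C1qc* was at 13.8, 10.6, 13.3, 14.1 and 11.4 CPM in AAV-NC and at 13.1 to 31.3 CPM with a median of 23.8 in AAV-TuD livers. Both rose, with log2 fold changes of 0.79 (edgeR adjusted p = 0.0168) for *C1qa* and 0.84 (edgeR adjusted p = 0.00669) for *C1qc*. No other annotated transcript shared a stretch of 100 or more bases at 85% identity with any of these genes, so that reads of the chains are not divided among copies.

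*Csf1r* (ENSMUSG00000024621), the receptor for the macrophage growth factors CSF1 and IL34, was the most abundant of the 10 markers in both groups. It was at 25.5, 20.1, 21.8, 33.7 and 22.6 CPM in the AAV-NC livers and at 24.7 to 78.2 CPM with a median of 48.4 in the AAV-TuD livers. Only the lowest treated liver was within the control values, and the log2 fold change was 0.98 (SE 0.22, edgeR adjusted p = 0.0116). *Csf1r* overlaps *Hmgxb3* on the opposite strand over 873 bases of transcript, and the strand setting of the counting is not given in the sources used here, so that reads from the shared bases could have gone to either gene. *Hmgxb3* itself had 2.31 ± 0.928 CPM (n = 5) in AAV-NC and 2.54 ± 0.594 CPM (n = 6) in AAV-TuD livers (log2 fold change 0.11, edgeR adjusted p = 0.844). *Adgre1* (ENSMUSG00000004730, chromosome 17, 57358691 to 57483527) encodes the adhesion receptor F4/80 by which mouse macrophages are commonly stained. Its level was 3.70, 3.52, 2.21, 5.88 and 5.94 CPM in the AAV-NC livers and 4.13 to 9.92 CPM with a median of 5.83 in the AAV-TuD livers. With 2 of 6 treated livers above all controls, the log2 fold change of 0.66 (SE 0.27, 95% interval 0.14 to 1.18) had an unadjusted p of 0.0248 and an adjusted p of 0.122 in edgeR's test. Scaling by library size without TMM also called *Adgre1* (log2 fold change 0.93, edgeR adjusted p = 0.0180), but it called 10.4% of all genes higher and moved the median of all genes from -0.002 to 0.23.

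**Figure D2:**
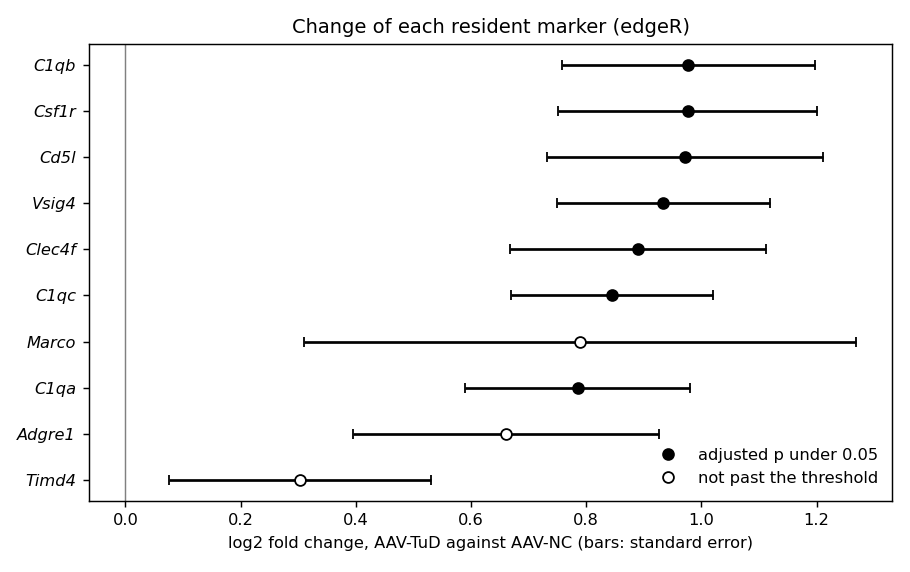
Log2 fold change of each resident marker in AAV-TuD (n = 6) against AAV-NC (n = 5) livers from edgeR, with bars for the standard error. Filled points passed an adjusted p of 0.05 over all 13334 genes and open points did not. The 7 filled points lie between 0.79 and 0.98, and the open points are *Marco*, with the widest bar, *Adgre1* and *Timd4*.

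The order of the marker levels was nearly the same in both groups. From high to low CPM it was *Csf1r*, *C1qb*, *C1qa*, *Clec4f*, *Cd5l*, *C1qc*, *Vsig4*, *Adgre1*, *Marco* and *Timd4* in AAV-NC livers. The first 5 of these had means of 24.7 ± 5.36, 21.9 ± 6.76, 21.1 ± 2.54, 20.1 ± 4.63 and 19.9 ± 3.95 CPM (SD, n = 5). Neighbouring means among them differed by less than the SD between livers. Within a liver, however, the log2 ratio of *C1qb* to *Csf1r* was negative throughout. It ran from -0.39 to -0.01 in AAV-NC and from -0.26 to -0.02 in AAV-TuD livers. *C1qc* and *Vsig4* had similar means, at 12.6 ± 1.58 and 12.6 ± 2.32 CPM. Whether the levels of 2 markers differed within livers was not tested. *Adgre1* and *Marco* likewise lay within their spread of each other, at 4.25 ± 1.62 and 3.81 ± 3.28 CPM. In AAV-TuD livers *Csf1r* and *C1qb* were again at the top, at 48.6 ± 18.1 and 43.1 ± 13.8 CPM (n = 6), and *Timd4* was again at the bottom, at 3.22 ± 0.9996 CPM.

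The treated livers spread widely. Summed over the 10 markers, the AAV-NC livers 1, 2, 6, 7 and 8 carried 145, 126, 126, 186 and 135 CPM. The AAV-TuD livers 3, 4, 5, 9, 10 and 11 carried 141, 302, 303, 246, 399 and 215 CPM. The AAV-TuD liver 3 was the lowest of its group for 10 of 10 markers, and it lay below the AAV-NC median for 5 of them. The AAV-TuD liver 10 was the highest of its group for 8 markers. Among the controls, liver 7, which also had the largest share of major urinary protein reads, was the highest for 7 markers. Whether that share has a part in its marker levels was not tested. Without the livers 7, 3 and 5, which had the largest such shares, and also without the AAV-TuD livers 3 and 10, the same 7 markers were called.

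After subtraction of each group's mean, the log2 CPM of the markers varied together over the 11 livers. Pearson's r between pairs of markers ranged from 0.04 (*Marco* and *C1qb*) to 0.97 (*Clec4f* and *Cd5l*), with a median of 0.71. *Csf1r* followed *Clec4f*, *Cd5l* and *Vsig4* at 0.97 each. The lowest value without *Marco* and *Timd4* was 0.53 (*Adgre1* and *C1qc*). *Timd4* and *Adgre1*, both with few reads, stood at 0.19. The points of such a correlation share their libraries and scaling factors, and the values are given as a description.

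**Figure D3:**
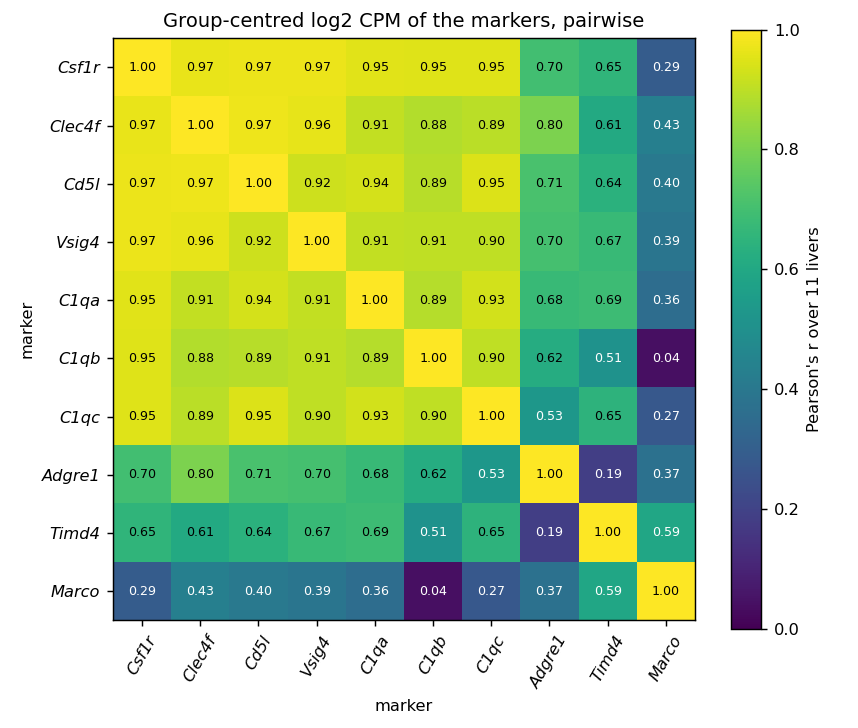
Pearson's r of group-centred log2 CPM over 11 livers for each pair of resident markers, as numbers and as colour from 0 (dark) to 1 (bright). *Csf1r*, *Clec4f*, *Cd5l*, *Vsig4* and the 3 C1q chains form a block of high values, while *Marco* has 0.04 with *C1qb* and *Timd4* has 0.19 with *Adgre1*.

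Ratios of reads within a liver do not depend on how libraries are scaled and compare the changes of the markers with each other. Set against *Adgre1*, none of the 9 other markers passed a two-sided exact permutation test of its log2 ratio over all splits of the livers. Adjusted p values ran from 0.666 to 0.829. *Adgre1* had only 20 to 115 reads per liver, and the SEs of the differences ran from 0.20 to 0.57, so that equal change was not shown. The difference was 0.16 (SE 0.20) for *Clec4f*, 0.22 (SE 0.24) for *Vsig4*, 0.05 (SE 0.24) for *C1qa* and -0.44 (SE 0.36) for *Timd4*. With the more abundant *Csf1r* as reference, *Clec4f* differed by -0.08 (SE 0.07), while *Timd4* went from -3.17 ± 0.40 in AAV-NC to -3.85 ± 0.31 in AAV-TuD livers. That difference of -0.67 (SE 0.22) had p = 0.0130 in the exact permutation test and 0.117 after adjustment over 9 ratios, and *Timd4* was thus not shown to lag behind *Csf1r*.

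Within C1q, the log2 ratio of *C1qa* to *C1qb* was -0.02 ± 0.28 (SD, n = 5) in AAV-NC and -0.25 ± 0.12 (n = 6) in AAV-TuD livers (exact permutation test, adjusted p = 0.318 over 3 ratios). That of *C1qb* to *C1qc* was 0.75 ± 0.29 and 0.91 ± 0.09 (adjusted exact permutation p = 0.347), and that of *C1qa* to *C1qc* 0.73 ± 0.18 and 0.66 ± 0.12 (adjusted exact permutation p = 0.418). None of these ratios passed the threshold. The ratios that involve *C1qb* depended on the AAV-NC liver 7. Without it the differences were -0.34 for *C1qa* to *C1qb* (adjusted exact permutation p = 0.0286) and 0.28 for *C1qb* to *C1qc* (adjusted exact permutation p = 0.0143). That of *C1qa* to *C1qc* was then -0.06 (adjusted exact permutation p = 0.590). No other omission of a single liver brought a ratio of the chains past the threshold.

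**Figure D4:**
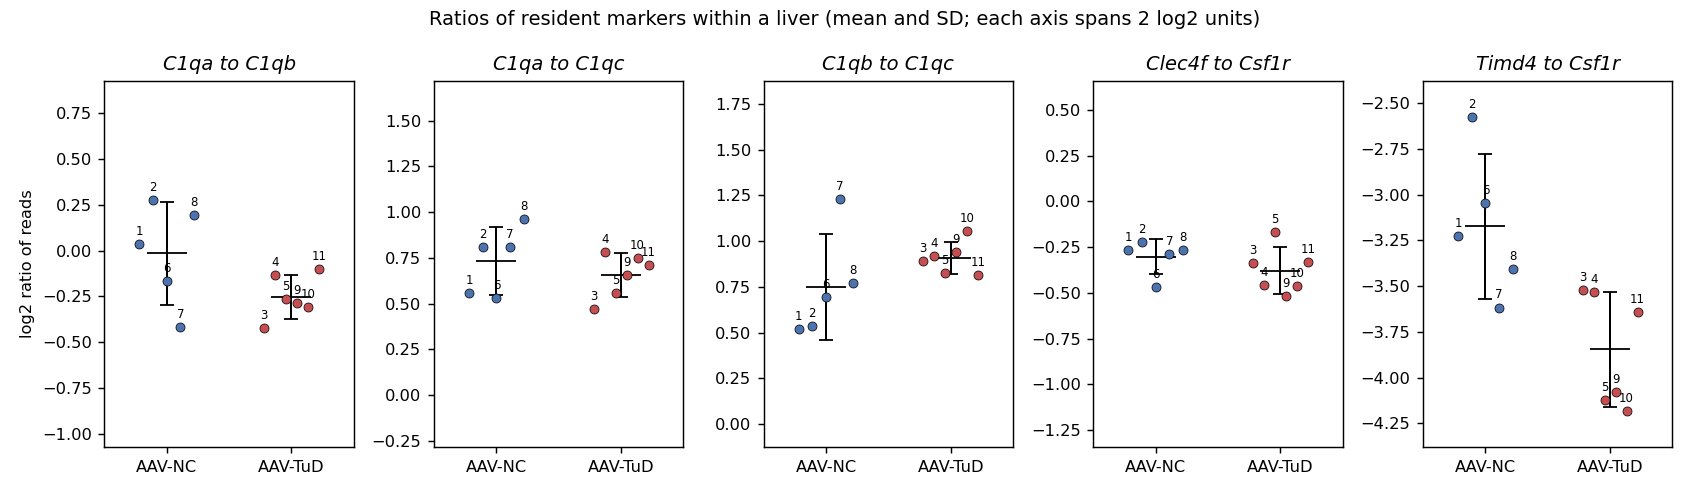
Log2 ratio of reads within each liver for the 3 pairs of C1q chains and for *Clec4f* and *Timd4* against *Csf1r*, with mean and SD of 5 AAV-NC and 6 AAV-TuD livers and with replicate numbers on the points. Each axis spans the same number of log2 units. The AAV-NC liver 7 stands at the AAV-TuD side in *C1qa* to *C1qb* and above all livers in *C1qb* to *C1qc*.

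A list of other genes ascribed to resident macrophages, which holds *Cd163*, *Fcna*, *Slc40a1*, *Paqr9* and *Mrc1*, had 14 tested genes. Of these 1 (7.14%) was called higher, near the 7.24% of all genes, and 5 had an unadjusted p under 0.05. The called gene was *Kcna2*, a potassium channel gene (3.21 ± 0.62 to 5.30 ± 1.43 CPM, log2 fold change 0.72, SE 0.21, edgeR adjusted p = 0.0399). It lost this call in 10 of 21 alternative settings. None fell, 11 of the 14 log2 fold changes were positive, and their median was 0.30. Whether this list differed from the 10 markers was not tested. *Cd163*, the haemoglobin scavenger receptor, had 9.82 ± 4.39 and 14.8 ± 4.21 CPM (log2 fold change 0.60, edgeR adjusted p = 0.147). *Slc40a1*, the iron exporter ferroportin, had 54.7 ± 11.2 and 56.2 ± 9.43 CPM (edgeR adjusted p = 0.90). *Mrc1*, the mannose receptor that sinusoidal endothelium also carries, had 45.8 ± 1.48 and 47.1 ± 5.04 CPM (edgeR adjusted p = 0.802). Several genes of this list are also expressed by hepatocytes or endothelium, and summed over the list the livers carried 304 to 393 CPM with AAV-NC and 302 to 381 CPM with AAV-TuD.

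Of the CSF1 pathway and the transcription factors of macrophages, 5 of 13 genes rose and none fell. Among all genes tested, 7.24% were called higher and 4.33% lower. *Spi1*, encoding PU.1, was at 2.51, 2.90, 1.55, 2.38 and 2.24 CPM in the AAV-NC livers and at 3.10 to 8.19 CPM with a median of 4.24 in the AAV-TuD livers. The groups did not overlap, as for 4.11% of all genes in this direction, and the log2 fold change was 1.07 (SE 0.26, edgeR adjusted p = 0.0140). *Zeb2*, a repressor needed by tissue macrophages including Kupffer cells, also rose without overlap, from 21 ± 1.18 to 30.04 ± 3.97 CPM (log2 fold change 0.52, edgeR adjusted p = 0.00370). *Tyrobp*, the adaptor of activating receptors, rose by 1.12 (edgeR adjusted p = 0.0349), a call lost in 8 of the 21 settings. *Irf8* and *Maf* rose by 0.65 and 0.28 (edgeR adjusted p = 0.0326 and 0.0481) and lost the call in 6 and 11 of them. *Maf* was at 127 ± 14.8 CPM in AAV-NC livers, above the 24.7 CPM of *Csf1r*, and which cells its reads came from was not tested. The ligands *Csf1* and *Il34* did not pass, with 4.14 ± 0.439 against 5.56 ± 1.43 CPM for *Csf1* (log2 fold change 0.43, edgeR adjusted p = 0.139) and 2.77 ± 0.727 against 2.99 ± 0.731 CPM for *Il34* (edgeR adjusted p = 0.792). The liver X receptor gene *Nr1h3*, which hepatocytes use as well, had a log2 fold change of -0.01 (edgeR adjusted p = 0.975).

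Genes shared by all myeloid cells moved with the resident markers. Of 14 tested, 11 rose and none fell, with a median log2 fold change of 0.91. The shares over all genes were 7.24% higher and 4.33% lower. The summed level was 116 to 139 CPM in AAV-NC and 149 to 314 CPM in AAV-TuD livers, so that every treated liver lay above every control, the AAV-TuD liver 3 included. *Ctss*, encoding the lysosomal protease cathepsin S, rose from 27.2 ± 1.79 to 53.3 ± 13.9 CPM (log2 fold change 0.97, edgeR adjusted p = 0.00133). *Cd52*, a glycoprotein of leukocytes, rose by 1.37 and *Cybb*, the catalytic subunit of the phagocyte oxidase, by 0.82 on the log2 scale (edgeR adjusted p = 0.00390 and 0.00443). The sum of the 10 resident markers divided by that of the shared myeloid genes had a median of 1.06 in AAV-NC (0.987 to 1.34) and of 1.1 in AAV-TuD livers (0.943 to 1.27).

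Markers of recruited and lipid-associated macrophages, which appear in injured or fatty liver, gave 8 higher of 10 tested and none lower. Over all genes tested the shares were 7.24% and 4.33%. The median log2 fold change of the list was 2.01. Of the 8, *Ccr2*, *Gpnmb* and *Mmp12* had more than 10 reads in no AAV-NC liver and entered the test through their treated livers alone. Neither the count nor the median is therefore one over all genes of the list, which held 15 genes, 10 of them among the genes counted. *Spp1*, encoding osteopontin, which cholangiocytes also make, rose from 5.08 ± 1.93 to 23.1 ± 5.95 CPM (log2 fold change 2.20, edgeR adjusted p = 1.18e-04). *Cd63*, a lysosomal tetraspanin, rose by 1.92 and *Clec7a*, the receptor for fungal glucans, by 2.10 on the log2 scale (edgeR adjusted p = 8.08e-04 and 0.00116). *Fabp5*, a fatty acid carrier, was the most abundant of the list and had 92.7 ± 43.4 and 43.5 ± 25.7 CPM (log2 fold change -1.10, edgeR adjusted p = 0.0686), and it was called lower in 6 of 21 alternative settings. The summed level of the list was 54.7 to 176 CPM in AAV-NC and 130.03 to 157 CPM in AAV-TuD livers. What share of the transcripts that resident and recruited macrophages have in common came from either population was not tested.

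The other cell types of the liver moved to different extents beside the markers. For their counts, 7.24% of all genes tested were called higher and 4.33% lower. Sinusoidal endothelial markers gave none called of 14 tested, with 417 to 448 CPM in AAV-NC and 410.4 to 470.4 CPM in AAV-TuD livers, and *Ptprb* at 109 ± 6.37 and 110.4 ± 4.75 CPM. Stellate cell markers gave 9 higher of 12, with a median log2 fold change of 0.76 and sums of 246 to 325 CPM and 418 to 543 CPM. Cholangiocyte markers gave 4 higher of 5 tested, with sums of 24.9 to 46.5 CPM and 51.7 to 84.9 CPM, and *Epcam* among them had more than 10 reads in no AAV-NC liver. Hepatocyte markers gave none called of 8. Divided by the endothelial sum, the resident markers had a median of 0.325 (0.282 to 0.440) in AAV-NC and of 0.631 (0.343 to 0.848) in AAV-TuD livers. Divided by the stellate sum they had a median of 0.516 (0.388 to 0.708) and of 0.527 (0.335 to 0.734). *Dcn* alone gave 150 ± 21.7 and 259 ± 23.4 CPM of the stellate sum, so that this ratio leans on a single gene. Of the neutrophil, lymphocyte and dendritic cell markers, 1 of 7, 1 of 14 and 2 of 8 were among the genes counted. These, *S100a9*, *Ighm*, *Clec9a* and *Zbtb46*, were not called, and the absent ones could not be tested. The part of these cell types in the result was not tested.

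**Figure D5:**
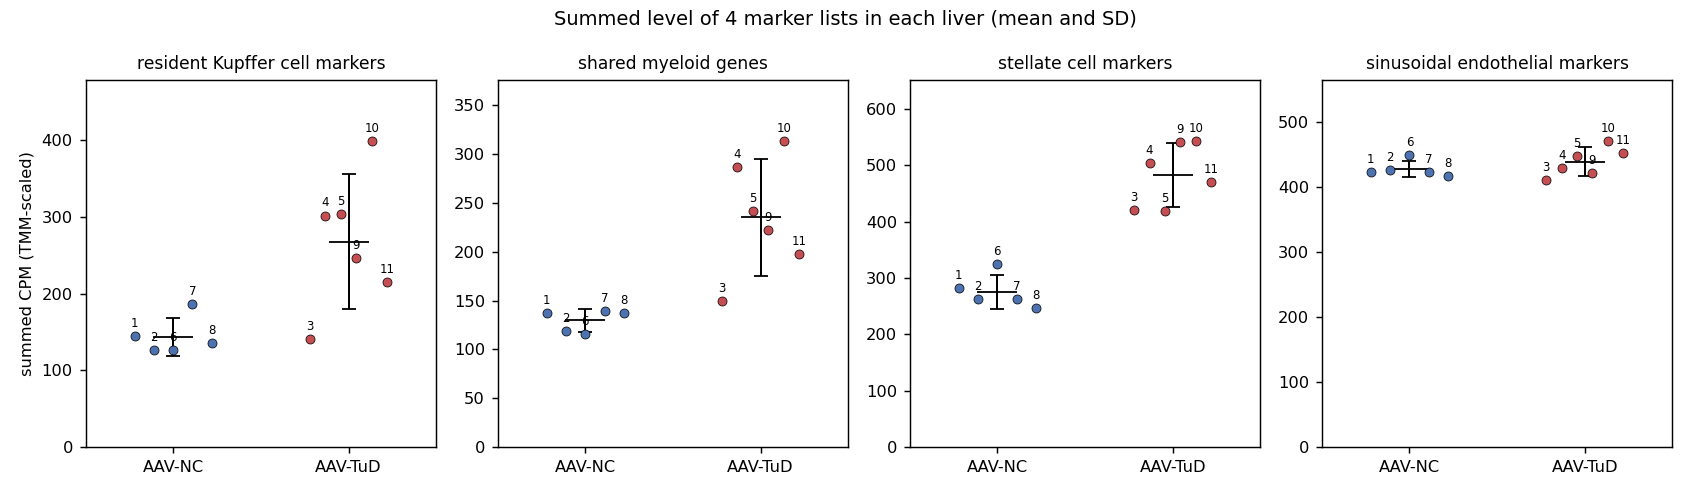
Summed TMM-scaled CPM of 4 marker lists in each liver, with mean and SD of 5 AAV-NC and 6 AAV-TuD livers, replicate numbers on the points and axes that start at 0. The resident markers overlap between groups only through the AAV-TuD liver 3, the shared myeloid and stellate lists are separate, and the endothelial list overlaps.

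The partners of the markers in their pathways were read in the same way. C1q starts a cascade whose further proteins come mostly from hepatocytes. Of 11 such partners, 2 (18.2%) rose and none fell, against 7.24% and 4.33% of all genes tested. Their median log2 fold change was -0.03. The 2 were receptors, *C3ar1* (2.51 ± 0.938 to 7.70 ± 2.63 CPM, log2 fold change 1.62, edgeR adjusted p = 0.00301) and *Cd93* (5.18 ± 1.40 to 9.04 ± 2.51 CPM, log2 fold change 0.80, edgeR adjusted p = 0.0220), the latter not called without the AAV-NC liver 1 (adjusted p = 0.0546). *C3* itself was at 1867 ± 253 and 1690.2 ± 197 CPM (edgeR adjusted p = 0.457). The proteases *C1ra* and *C1s1*, which bind C1q, had log2 fold changes of -0.11 and -0.03 (edgeR adjusted p = 0.374 and 0.844). The inhibitor *Serping1* had 687 ± 72.2 and 567 ± 43.7 CPM (log2 fold change -0.28, edgeR adjusted p = 0.0501), and it was called lower in 7 of 21 alternative settings, DESeq2 and limma-voom among them.

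Beside *Timd4*, receptors and bridging proteins for phosphatidylserine gave 4 higher of 10 tested and none lower. For this list and the next, the shares over all genes were 7.24% higher and 4.33% lower. *Mfge8*, a bridging protein between dying cells and integrins, rose from 13 ± 2.98 to 33.6 ± 11.2 CPM (log2 fold change 1.38, SE 0.22, edgeR adjusted p = 0.00133). *Axl*, a receptor kinase that binds such cells through GAS6, rose from 4.88 ± 0.384 to 11.5 ± 3.13 CPM (log2 fold change 1.23, SE 0.20, edgeR adjusted p = 0.00147). The bridging protein gene *Pros1* rose by 0.33 (edgeR adjusted p = 0.0386), a call lost in 8 of 21 settings, and the integrin subunit gene *Itgb5* by 0.40 (edgeR adjusted p = 0.0493), a call lost in 11. *Mertk*, the related kinase of resident macrophages, had 20.9 ± 2.25 and 24.4 ± 3.70 CPM (log2 fold change 0.22, edgeR adjusted p = 0.218). Beside *Marco*, 13 scavenger receptor genes gave 3 higher (*Cd36*, *Scara3* and *Cd68*) and 1 lower (*Scarb2*). *Scara3* rose from 0.911 ± 0.472 to 3.38 ± 0.947 CPM (log2 fold change 1.90, edgeR adjusted p = 0.002). *Cd68*, the lysosomal glycoprotein of macrophages, rose from 2.48 ± 1.01 to 5.25 ± 2.06 CPM (log2 fold change 1.07, edgeR adjusted p = 0.0359), a call lost in 5 of 21 settings. *Scarb2* fell by 0.25 on the log2 scale (edgeR adjusted p = 0.0298), lost this call in 9 of 21 settings, and had a change of -0.002 with library size alone.

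The genes whose group-centred log2 CPM followed the mean of the 10 markers most closely over the 11 livers, among genes with at least 50 reads on average, were *Fcer1g*, *Cd300ld*, *Ccl6*, *C3ar1* and *H4c9*, with Pearson's r of 0.964, 0.940, 0.934, 0.929 and 0.923. *Fcer1g*, the common signalling chain of Fc receptors, rose from 5.71 ± 1.24 to 11.3 ± 3.52 CPM (log2 fold change 1.0, SE 0.22, edgeR adjusted p = 0.00867). *Ccl6*, a myeloid chemokine, rose from 4.07 ± 1.05 to 8.10 ± 3.05 CPM (edgeR adjusted p = 0.0209), a call lost in 2 of 21 settings. *Cd300ld*, a receptor gene of the CD300 family on myeloid cells, had 5.77 ± 0.918 and 9.86 ± 2.98 CPM, and its call (edgeR adjusted p = 0.0289) was lost in 7 of 21 settings. *H4c9*, a histone gene, rose from 3.49 ± 0.569 to 8.0 ± 3.74 CPM (edgeR adjusted p = 0.0229) and lost the call in 5 settings.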

How the data were processed

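Liver RNA of 11 mice, 5 AAV-NC and 6 AAV-TuD, was examined. The authors made QuantSeq 3′ libraries, trimmed with BBDuk, aligned with STAR 2.5.3a (GRCm38) and used Rsubread to obtain gene counts, which they deposited without normalization. The annotation release and strand setting are not given in the sources used here. Each of the 13669 genes in these counts had at least 10 reads in 5 or more livers, and genes with fewer were absent. Of the 13669 genes, the 13334 that exceeded 10 reads in 5 or more livers were tested with edgeR 4.0.16 in R 4.3.3 (quasi-likelihood test, TMM factors, Benjamini-Hochberg adjustment, threshold 0.05). CPM were scaled by TMM, with a prior count of 2 on the log2 scale. Log2 ratios of reads (1 read added) were tested by two-sided exact permutation over all splits of the livers. The p values measure the spread between livers of single animals. The test was tried on simulated counts. DESeq2 1.42.0, limma-voom (limma 3.58.1), other scaling factors and filters, removal of the 50 most abundant genes and omission of each liver were the alternatives, and the omission of 2 sets of livers was added after the data had been seen. Positions are from GENCODE M21, which holds 13658 of the identifiers. Transcripts were compared with blastn 2.17.0. Columns of other samples numbered 0.

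The markers and the 15 lists of other genes were chosen with earlier results of these data known. Named genes were all markers, in each list the 3 with the smallest p and the 2 most abundant, and the 5 most like the markers. *Cd163*, *Tyrobp*, *Csf1*, *Il34*, *Nr1h3*, *Clec7a*, *C1ra*, *C1s1*, *Mertk*, *Itgb5*, *Cd68*, *Hmgxb3*, *Smad4*, *Ccr2*, *Gpnmb*, *Fcna* and *Mrc1* were named after their values were seen.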

Additional observations from a re-analysis of the deposited data

Results flagged for a closer look

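In 6 of 188 groups of values examined (3.19%) a single liver stood apart from the others of its group by Dixon's criterion, which chance meets in about 5% of groups. *Marco* is the resident marker among them: the AAV-NC liver 2 was at 9.57 CPM, and its distance from the nearest liver was 0.806 of the range of the group. The AAV-TuD liver 3, the lowest for every resident marker, was also low for *Gdf2* (10.6 CPM, 0.630 of the range) and *Axl* (5.63 CPM, 0.627 of the range). The AAV-TuD liver 5 was low for *Spp1* (11.7 CPM, 0.664 of the range). The AAV-NC liver 1 was low for *Zbtb46* (3.46 CPM, 0.831 of the range), and the AAV-TuD liver 9 was high for *Alb* (33283 CPM, 0.677 of the range).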

How the results depend on the processing

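The 7 resident markers stayed called in all 21 alternatives, and with library size alone there were 8. The median log2 fold change of the 10 markers lay between 0.76 (without the AAV-TuD liver 10) and 1.15 (library size alone), and no result reversed. The number of differentially expressed genes, 1543, lay between 1012 and 1829 with 1 liver left out, and that of lower genes, 577, between 337 and 714. Omission of the AAV-TuD liver 4 gave the lowest of both, and without the AAV-TuD liver 10 there were 379 lower genes. With library size alone 71 genes were lower, and 95.1% of the called genes were higher, against 62.6% with TMM. The other alternatives gave 1219 to 1811 genes. Counts in the other lists moved more. The 5 higher transcription factor and CSF1 pathway genes became 2 without the AAV-NC liver 2 or 6 or the AAV-TuD liver 4 or 10. The 4 higher genes of the phosphatidylserine list became 2 without the AAV-NC liver 1, 6 or 7 or the AAV-TuD liver 4, 9 or 10. The 3 higher scavenger receptors became 2 without the AAV-NC liver 1, 2 or 6 or the AAV-TuD liver 4 or 10, 5 with library size alone and 6 without the 3 livers richest in major urinary protein reads. *Kcna2*, the single other resident macrophage gene called, lost its call without any 1 liver except the AAV-TuD liver 3, and with library size alone 4 genes of its list were called. The 8 higher recruited macrophage genes became 5 of 8 tested without the AAV-TuD liver 4, 9 or 10, and 3 of 6 tested without the AAV-TuD livers 3 and 10, which also left 2 higher cholangiocyte genes of 3 tested. *Timd4*, *Marco* and *Adgre1* had at most 51, 130 and 115 reads in any liver, which limits what their differences can show. No paired analysis was possible because no replicate number occurs in both groups.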

Other observations

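Genes of the cells that house Kupffer cells, which supply them with signals of the BMP, Notch and adhesion pathways, gave 4 higher of 13 tested and 1 lower, with a median log2 fold change of 0.37. Among all genes tested, 7.24% were called higher and 4.33% lower. *Gdf2*, encoding BMP9, which stellate cells secrete, rose from 7.22 ± 1.22 (SD, n = 5) to 14.1 ± 1.83 CPM (n = 6; log2 fold change 0.96, SE 0.13, edgeR adjusted p = 5.11e-04). *Vcam1*, an adhesion molecule that Kupffer cells themselves also carry, rose from 10.4 ± 1.44 to 22.8 ± 5.43 CPM (log2 fold change 1.12, SE 0.16, edgeR adjusted p = 5.52e-04). *Rbpj*, the nuclear effector of Notch signalling, rose from 9.01 ± 0.281 to 13.7 ± 1.47 CPM (log2 fold change 0.61, SE 0.10, edgeR adjusted p = 0.00160). *Eng*, a BMP co-receptor of endothelium, rose by 0.40 on the log2 scale (edgeR adjusted p = 0.0269) and lost the call in 5 of 21 settings. *Smad4*, the shared mediator of BMP and TGF-beta signals, fell by 0.27 on the log2 scale (edgeR adjusted p = 0.0433), a call lost in 16 of 21 settings. The summed level of the list was 87.5 to 95.7 CPM in AAV-NC and 116 to 135 CPM in AAV-TuD livers, with no overlap.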
